A study of Rattus norvegicus with 20 samples.

Results

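The probe sets for the adult alpha and beta globin chains and for Ahsp, the chaperone of free alpha chains, were followed in femur RNA of 4 rat strains. A probe set was a member where one of its gene symbols began with Hba or Hbb, or was Ahsp. This gave 8 of the 31042 probe sets that were not controls, of which 3 carried 1 gene symbol and 5 carried 2. By the array's annotation 1370239_at, 1370240_x_at and 1388608_x_at were shared by Hba-a2 and Hba-a1, 1375519_at was Hba-a3, 1367553_x_at was Hbb, 1371102_x_at and 1371245_a_at were shared by Hbbl1 and Hbb-bs, and 1389160_at was Ahsp. The arrays held 20 rats aged 4 weeks, 1 array per animal and 5 animals per strain. P.NP is a congenic strain with the NP segment of chromosome 4 (4q22 to q34, a region linked to alcohol preference and bone density) on the P background, and P is the inbred alcohol-preferring strain. NP.P is the reciprocal congenic with the P segment on the NP background, and NP is the inbred alcohol-nonpreferring strain. Each congenic is 1 line made by repeated backcrossing, no strain received a treatment, and RNA was taken from frozen femur (proximal femur in the labels) with no step named that would have removed the marrow.

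Hemoglobin, the oxygen carrier of red cells, is a tetramer of alpha-like and beta-like globin chains, each with a heme group. The messengers for these chains are made by erythroblasts, which mature in the marrow, and they are among the most abundant messengers of blood-forming bone. Alpha chains that have not yet met a beta chain are unstable and damaging to the cell, and Ahsp binds them until they pair.

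In the RefSeq annotation of the rat assembly GRCr8 the alpha genes lie on chromosome 10, Hba-a3 at 15816099 to 15816943, Hba-a2 at 15828291 to 15829138 and Hba-a1 at 15841724 to 15842580. The beta genes lie on chromosome 1, Hbb-bs at 167630245 to 167631630, Hbbl1 at 167648859 to 167650235 and Hbb at 167662310 to 167663721, with Ahsp on the same chromosome at 192310306 to 192315943. None of them lies on chromosome 4. The beta cluster also holds Hbb-b1 and Hbb-b2, whose symbols no probe set carried in the annotation used.

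The 120 bases before the annotated start of each globin gene are printed because they show how alike the copies are in this stretch, and where single copies differ. The stretch lies before the annotated start and does not show how alike the messengers are that the probes read. They were taken from RefSeq (GRCr8, all on the minus strand, 5′ to 3′ in the sense of the gene), an assembly made from another strain than P or NP, and were found for 6 of the 7 genes, all but Ahsp. Letters were searched on both strands and matches are in capitals. The motifs were CCAAT (the CCAAT box), CACCC (the core bound by Klf1 and its relatives), TATAAA and the variant spelt CATAAA (the TATA box) and GATAA (the core bound by Gata1). The windows are chr10:15842581-15842700, chr10:15829139-15829258 and chr10:15816944-15817063 for the alpha genes and chr1:167663722-167663841, chr1:167650236-167650355 and chr1:167631631-167631750 for the beta genes.
Hba-a1: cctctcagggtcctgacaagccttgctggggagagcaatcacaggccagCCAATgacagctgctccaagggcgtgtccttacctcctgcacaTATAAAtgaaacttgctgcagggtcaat
Hba-a2: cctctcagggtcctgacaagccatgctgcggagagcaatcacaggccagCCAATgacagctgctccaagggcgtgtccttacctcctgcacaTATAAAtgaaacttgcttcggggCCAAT
Hba-a3: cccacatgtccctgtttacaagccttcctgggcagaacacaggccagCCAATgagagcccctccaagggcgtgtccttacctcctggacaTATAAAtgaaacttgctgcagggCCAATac
Hbb: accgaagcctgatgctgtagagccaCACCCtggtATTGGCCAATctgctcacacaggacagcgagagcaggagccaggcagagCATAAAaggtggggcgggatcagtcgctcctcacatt
Hbbl1: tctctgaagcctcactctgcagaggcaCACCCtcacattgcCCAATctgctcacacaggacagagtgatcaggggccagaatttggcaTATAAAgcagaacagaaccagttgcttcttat
Hbb-bs: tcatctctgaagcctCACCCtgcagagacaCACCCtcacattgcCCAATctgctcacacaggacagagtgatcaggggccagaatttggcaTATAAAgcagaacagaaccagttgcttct

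The window of Hba-a1 was 95.8% identical to that of Hba-a2 and 83.2% identical to that of Hba-a3. The windows of Hbbl1 and Hbb-bs were 93.5% identical, and that of Hbb was 70.4% identical to the window of Hbbl1 and 68.0% identical to that of Hbb-bs. CCAAT was found in 6 of the 6 globin windows and in 19.9% of the 33469 windows of this length in the table. TATAAA was found in 5 of 6 and in 6.66% of all windows, and CATAAA, found in 5.28% of all windows, stood in its place in Hbb. CACCC was found in the 3 beta windows and in 0 of the alpha windows on either strand, against 29.5% of all windows. GATAA was found in 0 of 6, against 11.2% of all windows. None of these letters overlapped those of another motif. These are matches of letters in a short window and not binding sites.

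All 8 probe sets lay at the bright end of the arrays. The deposited values are MAS5 signals, linear brightness values that the authors brought to one common trimmed mean. Ranked by mean signal over the 20 arrays, the 8 took places between 7 (1388608_x_at) and 108 (Hba-a3) of 31042, so that between 0.0193% and 0.345% of probe sets were brighter. On single arrays they reached between 38.9% and 88.6% of the highest signal. Such ranks describe brightness and not the relative amounts of the messengers, since probes differ in how they bind. Together the 8 made up at least 0.872% of the summed signal of every array. All 8 passed the filter on low signals (mean log2 signal no lower than the 40th percentile) and were tested among 18625 probe sets with limma on log2 signals, with Benjamini-Hochberg adjustment over all 18625 and calls at a false discovery rate of 10%.

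**Figure D1:**
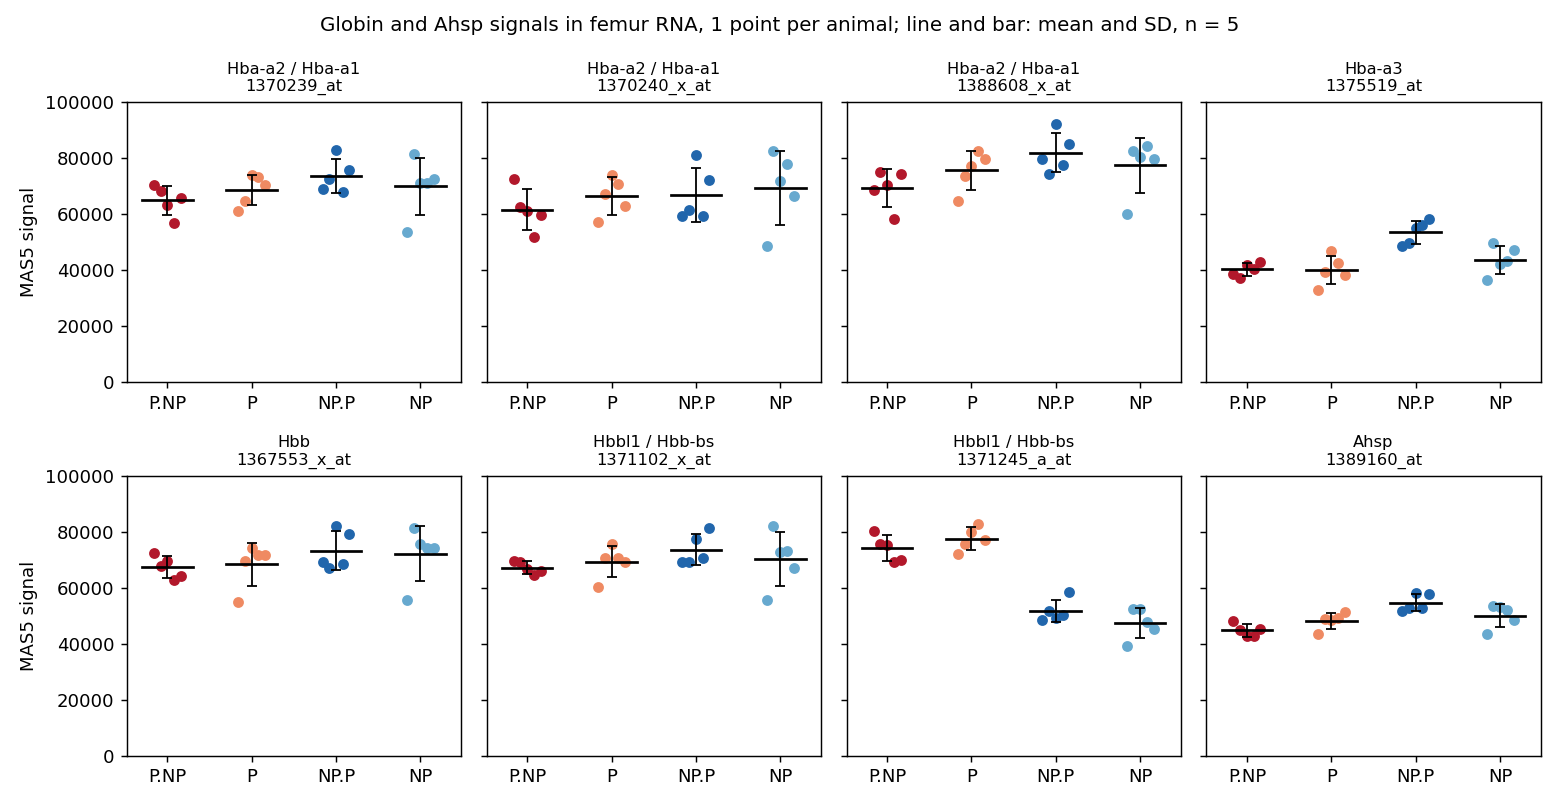
MAS5 signal (linear axis from 0) of each of the 8 probe sets in the 4 strains, with 1 point per animal and the mean and SD as a line and a bar (n = 5 per strain). The P.NP and P points of 1371245_a_at, all at or above 69020, lie above the NP.P and NP points, all at or below 58480, while the strains overlap in the panels of the other shared globin probe sets.

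Across the strains 3 of the 8 probe sets were called by the F test, 1371245_a_at (adjusted p = 3.87e-06), Hba-a3 (0.0137) and Ahsp (0.0454), where 18.2% of all probe sets tested were called. The same 3 were called between the backgrounds (P.NP and P against NP.P and NP). There 1 member was higher, against 11.1% of all probe sets called higher, and 2 were lower, against 11.3% called lower. In P minus NP 1 member was called and was higher, with 2.43% of all probe sets called higher. No member was called for the chromosome 4 segment in P.NP minus P (0.231% of all probe sets called), in NP.P minus NP (2.3% called), over both backgrounds (P and NP.P minus P.NP and NP, 0.886% called) or in the interaction of segment and background (0.317% called). At an unadjusted p under 0.05 in limma these 4 comparisons held 0, 1, 2 and 1 of the 8 members. Of all 18625 probe sets tested they held 1434, 2449, 2126 and 1808, so the member counts are not read as a segment effect. The methods' unequal-variance test with the same adjustment called 0 members in P.NP minus P and 0 in NP.P minus NP. Over all probe sets tested it called 0 and 10 there, so its counts of 0 members say little about the globins.

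The 3 probe sets shared by Hba-a2 and Hba-a1, the main adult alpha genes, were not called in any comparison. The signal of 1370239_at averaged 64795 ± 5138 in P.NP, 68519 ± 5487 in P, 73537 ± 5988 in NP.P and 69818 ± 10104 in NP rats (SD, n = 5 each). That of 1370240_x_at averaged 61431 ± 7335 in P.NP, 66388 ± 6617 in P, 66597 ± 9636 in NP.P and 69373 ± 13178 in NP rats. That of 1388608_x_at averaged 69286 ± 6711 in P.NP, 75507 ± 6830 in P, 81777 ± 7002 in NP.P and 77271 ± 9938 in NP rats. The strains overlapped at each of the 3, and in each the NP strain had the widest spread. Their log2 differences between the backgrounds were -0.10 (SE 0.07), -0.08 (SE 0.09) and -0.13 (SE 0.07), with limma's adjusted p of 0.354, 0.608 and 0.214. In NP.P minus NP they were 0.08 (95% interval -0.12 to 0.29), -0.05 (-0.32 to 0.23) and 0.09 (-0.12 to 0.30), and in P.NP minus P they were -0.08 (-0.29 to 0.12), -0.11 (-0.39 to 0.16) and -0.12 (-0.33 to 0.08). With 5 arrays per strain these intervals leave room for differences up to the bounds given.

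Hba-a3, a further adult alpha copy, had a probe set of its own by the annotation, and the signal was lower on the P background. Which alpha copies, and which strain's bases, the probes of Hba-a3 matched was not analysed here. In RNA of whole bone, fewer red cell precursors and less globin RNA per precursor cannot be told apart. Its signals were 38693, 36973, 41913, 40226 and 42986 in the P.NP rats and 32932, 39313, 46816, 42452 and 38349 in the P rats. They were 48397, 49607, 55094, 55890 and 58016 in the NP.P rats, and 36362, 49519, 41930, 43146 and 47034 in the NP rats. The NP.P rats were the highest group, with 4 of 5 above every rat of the other strains and the lowest of them below 1 NP rat. The difference between the backgrounds was -0.27 on the log2 scale (SE 0.07, 0.83-fold, adjusted p = 0.0101 by limma). It was -0.18 after quantile normalization (adjusted p = 0.0399). With the score of 12 erythroid markers (their mean centred log2 signal) as a covariate it was not called (-0.15, SE 0.15, adjusted p = 0.668). P minus NP was -0.13 (SE 0.10, adjusted p = 0.549) and P.NP minus P was 0.01 (SE 0.10, adjusted p = 0.995).

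The NP.P and NP rats differed by 0.30 at Hba-a3 (SE 0.10, 1.23-fold, 95% interval 0.10 to 0.50), which had an unadjusted p of 0.00575 and an adjusted p of 0.150 in limma and so was not called. It crossed the threshold with a filter at the 60th percentile, with a mean-variance trend, with the replicate number as a block and without NP replicate 2, and its adjusted p over all alternatives lay between 0.0894 and 0.740. The interaction, which asks whether the P segment shifted Hba-a3 more on the NP than on the P background, was 0.31 (SE 0.13, unadjusted p = 0.0325, adjusted p = 0.451). Within each array, the log2 ratio of Hba-a3 to 1370239_at, a comparison chosen after the values were seen, averaged -0.46 ± 0.13 in NP.P and -0.67 ± 0.08 in NP rats (SD, n = 5 each). The difference of 0.21 had an exact permutation p of 0.0159 (2-sided, 0.0418 after adjustment over 6 such ratio tests). In P.NP and P rats this ratio averaged -0.69 ± 0.17 and -0.78 ± 0.10, a difference of 0.09 (exact permutation p = 0.294, adjusted 0.400). A ratio of 2 probe sets shows only that they changed by unequal amounts.

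The beta globins split by probe set. Hbb itself was not called in any comparison: its signal averaged 67280 ± 3842 in P.NP, 68387 ± 7637 in P, 73167 ± 6911 in NP.P and 72152 ± 9747 in NP rats (SD, n = 5 each). Its log2 difference was -0.10 between the backgrounds (SE 0.07, adjusted p = 0.399), 0.03 in NP.P minus NP (95% interval -0.19 to 0.24) and -0.02 in P.NP minus P (-0.23 to 0.20).

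The 2 probe sets shared by Hbbl1 and Hbb-bs gave different results for the same gene pair. With 1371245_a_at the signals were 80371, 75492, 75215, 69020 and 69843 in the P.NP rats and 71885, 75748, 80018, 82863 and 77011 in the P rats. They were 48469, 51752, 49201, 50388 and 58480 in the NP.P rats and 39278, 52347, 52382, 47733 and 45079 in the NP rats. Every rat on the P background was above every rat on the NP background, and within each background the strains overlapped. The background difference was 0.62 (SE 0.06, 1.53-fold, adjusted p = 3.15e-07 by limma), which placed the probe set 104th by p among the 18625, and P minus NP was 0.72 (SE 0.08, 1.64-fold, adjusted p = 1.02e-05). The segment comparisons were not called, with 0.13 in NP.P minus NP (95% interval -0.04 to 0.30, adjusted p = 0.536) and -0.07 in P.NP minus P (-0.24 to 0.10, adjusted p = 0.932).

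With 1371102_x_at the signals were 69607, 69263, 66817, 64329 and 65812 in the P.NP rats and 60350, 70477, 75601, 70590 and 69160 in the P rats. They were 69141, 69040, 77437, 70528 and 81224 in the NP.P rats and 55577, 82027, 72770, 73231 and 67142 in the NP rats. All 4 strains overlapped here. The background difference was -0.07 (SE 0.06, 95% interval -0.20 to 0.06, adjusted p = 0.498), NP.P minus NP was 0.08 (-0.11 to 0.26) and P.NP minus P was -0.04 (-0.23 to 0.15). Within single arrays the log2 ratio of 1371245_a_at to 1371102_x_at lay between 0.08 and 0.25 on the P background and between -0.65 and -0.42 on the NP background, with means of 0.15 ± 0.06 and -0.54 ± 0.08 (SD, n = 10 each). The difference of 0.69 had a permutation p of 2e-05 (2-sided, 100000 resamples, the smallest these can give, 0.00012 after adjustment over the 6 ratio tests), and this comparison too was chosen after the values were seen. Between the strains of 1 background the ratio differed by -0.03 in P.NP minus P (exact permutation p = 0.50) and by 0.05 in NP.P minus NP (exact permutation p = 0.333). The suffixes of Affymetrix names mark probe sets in which some probes also match other sequences (_x_at) or in which all match several transcripts of a gene (_a_at). Which copies, and which strain's bases, each probe matched was not analysed here.

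**Figure D2:**
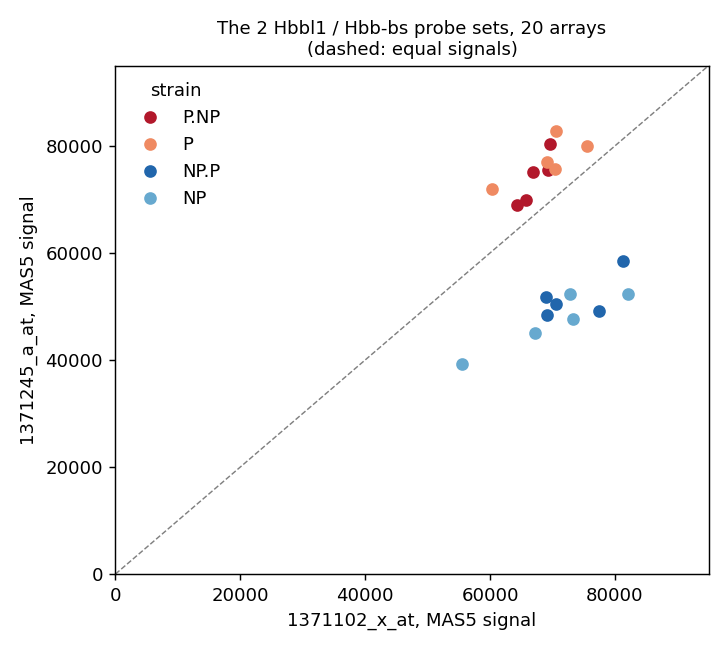
MAS5 signals of the 2 probe sets shared by Hbbl1 and Hbb-bs on each of the 20 arrays, coloured by strain, with a dashed line where the signals are equal. The 10 P.NP and P arrays lie above the line, at log2 ratios of 0.08 to 0.25, and the 10 NP.P and NP arrays lie below it, at -0.65 to -0.42.

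Ahsp, the chaperone, had signals of 48213, 45001, 42854, 42650 and 45080 in the P.NP rats and 43500, 48807, 48377, 49216 and 51188 in the P rats. The signals were 51655, 52668, 58159, 52701 and 57863 in the NP.P rats and 43378, 53423, 52924, 52022 and 48374 in the NP rats. All NP.P rats lay above all P.NP and P rats, and NP replicate 1 lay among the lowest of all. Ahsp was lower on the P background by a log2 difference of -0.17 (SE 0.05, 0.89-fold, adjusted p = 0.0247 by limma). The segment differences were 0.13 in NP.P minus NP (95% interval -0.02 to 0.27, adjusted p = 0.454) and -0.11 in P.NP minus P (-0.25 to 0.04, adjusted p = 0.803). Over both backgrounds the P segment differed by 0.12 (SE 0.05, unadjusted p = 0.0271, adjusted p = 0.358). The background call was lost after quantile normalization (-0.08, adjusted p = 0.154) and after centring each array on 200 bright probe sets (-0.09, adjusted p = 0.180), and its adjusted p lay between 0.00702 and 0.988 over all alternatives.

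**Figure D3:**
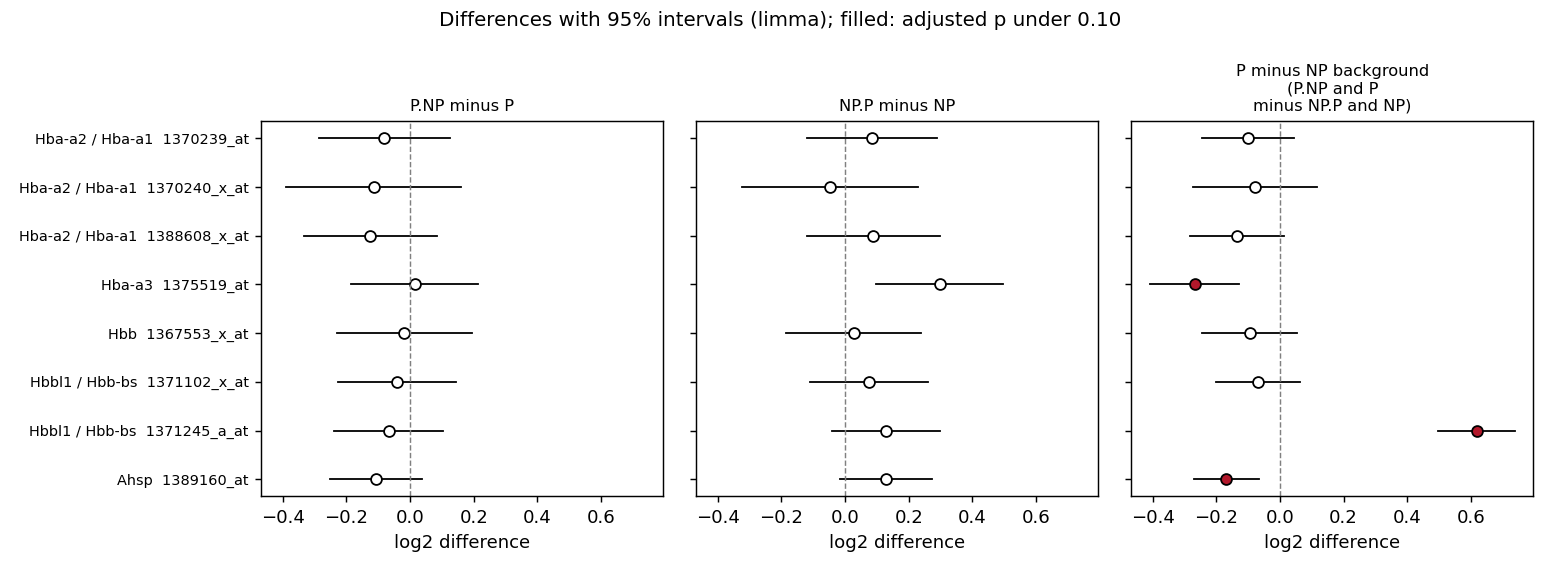
Log2 differences of the 8 probe sets (points) with 95% intervals (lines) from limma in P.NP minus P, NP.P minus NP and the 2 P background strains minus the 2 NP background strains. Filled points passed the 10% threshold: 0.62 for 1371245_a_at, -0.27 for Hba-a3 and -0.17 for Ahsp, all between backgrounds.

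Part of the spread within strains was common to the bright end of the array. The mean log2 signal of the 200 brightest probe sets outside the members and the red cell lists was computed for each array. Its deviation from the average of all arrays lay between -0.14 and 0.01 in P.NP, between -0.12 and 0.05 in P, between 0.02 and 0.15 in NP.P and between -0.21 and 0.13 in NP rats. NP replicate 1 was the lowest, and its highest signal, 76834, was below that of every other array (83646 to 109499). After the strain means were subtracted, the mean of the 7 globin probe sets followed this bright shift over the 20 arrays with r = 0.95 and rho = 0.93, and with r = 0.90 without NP replicate 1 and P replicate 1, the 2 arrays farthest from the median shift. Against the score of 12 erythroid markers the same mean had r = 0.40 and rho = 0.25, and r = 0.46 without the 2 farthest arrays. The values for Ahsp were r = 0.83 and rho = 0.77 against the bright shift, 0.69 without the same 2 arrays, and r = 0.50 and rho = 0.44 against the erythroid score. Among the 8 single members r against the bright shift lay between 0.65 (Hba-a3, rho = 0.54) and 0.92 (1371102_x_at). These are descriptions over arrays that share 1 scaling step, and they carry no test.

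**Figure D4:**
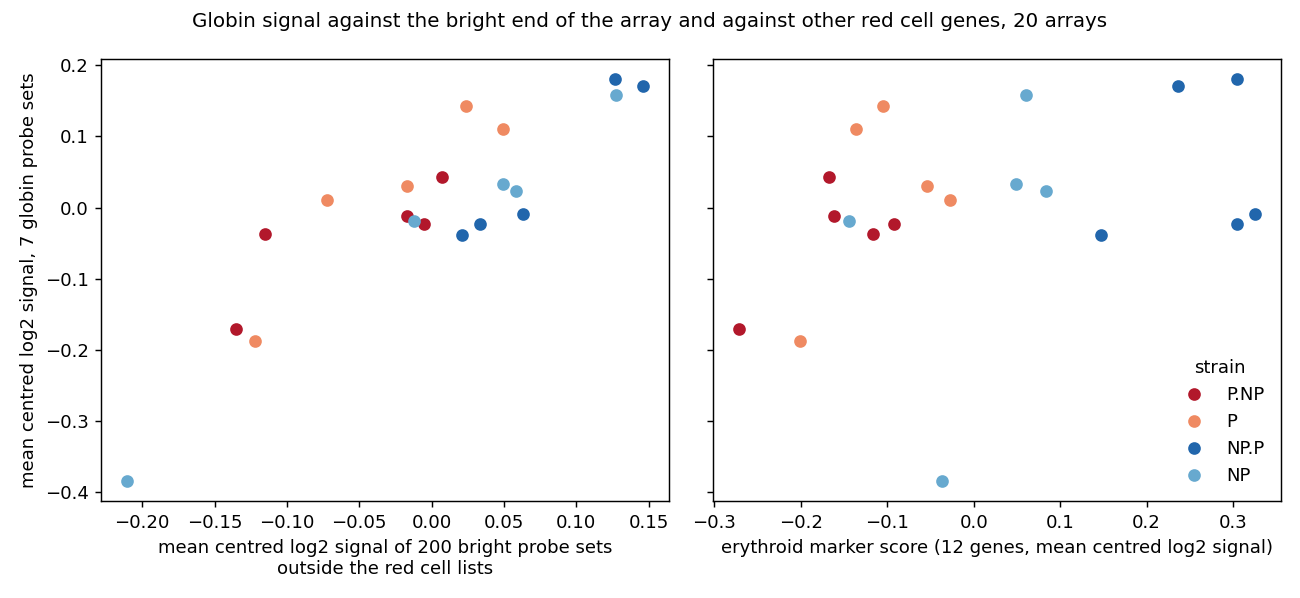
Mean centred log2 signal of the 7 globin probe sets on each of the 20 arrays against the mean of 200 bright probe sets outside the red cell lists and against the score of 12 erythroid markers, coloured by strain, with strain means left in. The globin mean climbs with the bright end, where NP replicate 1 is lowest on both axes (-0.21 and -0.38), and the NP.P arrays stand apart on the erythroid axis (0.15 to 0.33) with globin means of -0.04 to 0.18.

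The 10 genes whose pattern within strains was most like the globin mean were Rpl7a (r = 0.96), Col1a1 (0.95), COX2 (0.95), Myl1 (0.93), Col1a2 (0.92), Acta1 (0.92), Rps3a (0.92), Rpl27a (0.92), Rps6 (0.91) and Rpl6 (0.90) over the 20 arrays. They encode ribosomal proteins, type I collagen chains, muscle proteins and a mitochondrial oxidase subunit, and their mean signals were 50746 or higher. None of them was in the erythroid or heme lists. The 10 genes most like Ahsp came from the same list apart from Arid5a (r = 0.83, mean signal 374) and Pebp1 (r = 0.82, mean signal 12281), which were less bright. The residual SD of Hbb was 0.16 on the log2 scale and 0.09 after each array was centred on the 200 bright probe sets. That of Ahsp was 0.09 before and 0.05 after, and that of Hba-a3 was 0.15 before and 0.11 after. Without NP replicate 1, 5 members were called between the backgrounds instead of 3, the added ones being 1370239_at (-0.15, adjusted p = 0.0885) and 1388608_x_at (-0.18, adjusted p = 0.0502). Whether signals this bright stay proportional to the messenger was not tested.

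The erythroid markers, mostly membrane and cytoskeletal proteins of red cells, were tested for 12 of 18 listed genes, with mean signals of 633 to 36126 against 44282 to 75960 for the members. In NP.P minus NP all 12 differences were positive (median 0.27, against 0.09 for the 8 members and -0.01 for all probe sets), and 3 rose: Slc25a37, the mitochondrial iron importer (0.36, SE 0.06, adjusted p = 0.0133), Hemgn, a nuclear protein of erythroid cells (0.28, SE 0.06, adjusted p = 0.0321), and Xk, a red cell membrane protein (0.26, SE 0.07, adjusted p = 0.0907). Slc25a37 averaged 20355 ± 1361 in NP.P and 15901 ± 1272 in NP rats, and Hemgn 27166 ± 1561 in NP.P and 22322 ± 797 in NP rats (SD, n = 5 each). Between the backgrounds 10 of the 12 were lower on the P background and 0 higher (median -0.26, against -0.10 for the members and 0.02 for all probe sets). In P minus NP 1 fell, Rhag, a partner of the Rh antigens (-0.39, SE 0.11, adjusted p = 0.0493).

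The enzymes of heme synthesis make the group that globin carries. In NP.P minus NP 4 of the 7 tested of 8 listed rose and 0 fell (median 0.25). They were Fech, which inserts the iron (0.25, SE 0.06, adjusted p = 0.0730), and the earlier enzymes Alad (0.29, SE 0.08, adjusted p = 0.0792), Urod (0.28, SE 0.08, adjusted p = 0.0840) and Cpox (0.29, SE 0.08, adjusted p = 0.0902). Fech averaged 26084 ± 1088 in NP.P and 21999 ± 1197 in NP rats (SD, n = 5 each), and the ranges did not overlap (24790 to 27191 against 20209 to 23137). Between the backgrounds 5 of the 7 were lower on the P background and 0 higher (median -0.26). In P.NP minus P 0 of 7 were called.

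Of the 16 regulators of globin transcription, all of them tested, 11 were lower on the P background and 0 higher (median -0.22). In P.NP minus P 1 fell, Sox6, which in mice represses embryonic beta-like globins (-0.64, SE 0.12, adjusted p = 0.0437), with means of 1232 ± 242 in P.NP and 1900.3 ± 227 in P rats (SD, n = 5 each). In P minus NP 3 fell, Myb, a factor of blood progenitors (-0.91, SE 0.17, adjusted p = 0.00217), Lyl1 (-0.45, SE 0.09, adjusted p = 0.00556) and Zfpm1, the Gata1 cofactor (-0.42, SE 0.10, adjusted p = 0.0233), and 1 rose, Cbfa2t3, a corepressor (0.40, SE 0.12, adjusted p = 0.0700). Of all probe sets 2.43% were called higher in P minus NP, and the share called lower is not given here. Counts of genes that fell in P minus NP, in this and the other red cell lists, are therefore not read as shifts of a list. In NP.P minus NP 0 of 16 were called (median 0.09).

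Among 9 genes that control globin messengers and free chains, 1 rose in NP.P minus NP: Eif2ak1, the kinase that slows globin translation when heme is short (0.33, SE 0.07, adjusted p = 0.0265), with means of 6807 ± 196 in NP.P and 5406 ± 340.3 in NP rats (SD, n = 5 each). Between the backgrounds 6 of the 9 were lower on the P background and 0 higher, and in P minus NP 1 fell, Pcbp1, an RNA-binding protein (-0.22, SE 0.07, adjusted p = 0.0926). Of 13 tested genes of hemoglobin redox state, ligands and scavenging, 8 were lower and 1 higher on the P background, and in P minus NP 1 fell, Cd163, the macrophage receptor for haptoglobin and hemoglobin (-0.80, SE 0.13, adjusted p = 0.000860).

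**Figure D5:**
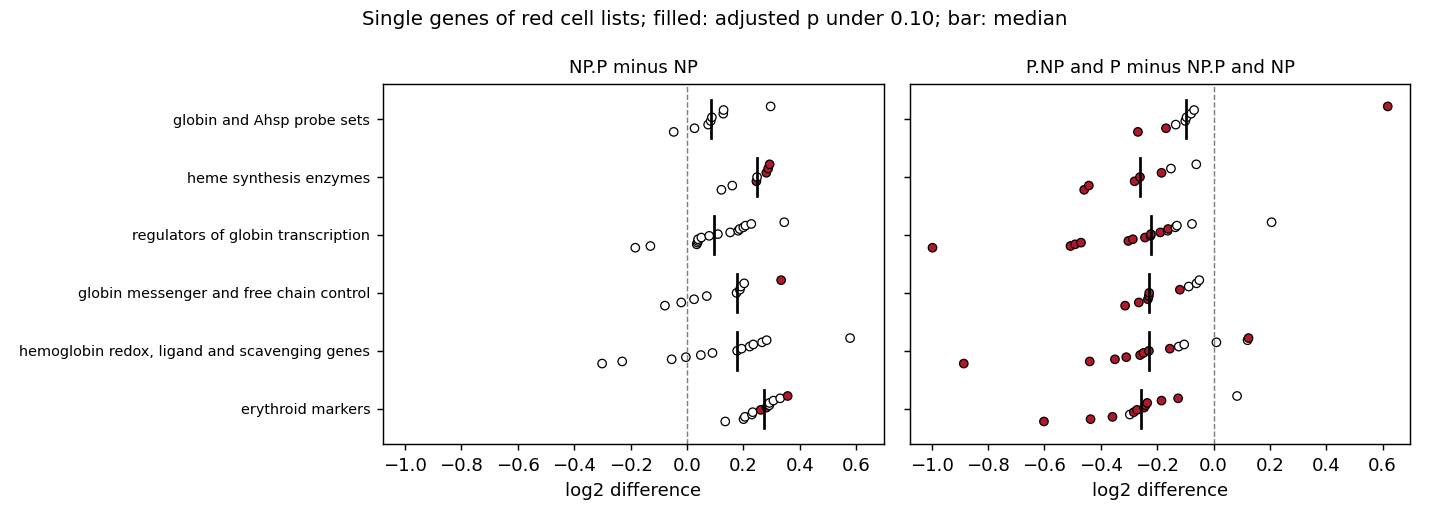
Log2 differences of single genes (points) in NP.P minus NP and in P.NP and P minus NP.P and NP, for the 8 globin and Ahsp probe sets and 5 red cell lists, with the median of each as a bar and called genes filled. The heme synthesis enzymes and erythroid markers lie to the right of 0 in NP.P minus NP (medians 0.25 and 0.27), and most of the members lie closer to 0 (median 0.09).

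The embryonic and minor globins with a probe set of 1 symbol were dim, and Mb was not. Hbe1, an embryonic beta-like globin, averaged 176 ± 29.1 in P.NP, 224 ± 103 in P, 329 ± 46.1 in NP.P and 246 ± 36.9 in NP rats (SD, n = 5 each) and was lower on the P background (-0.58, SE 0.17, adjusted p = 0.0228). Hbe2 averaged 206 ± 90.3 in P.NP, 305 ± 107 in P, 200.2 ± 71.9 in NP.P and 228 ± 76.6 in NP rats and was not called. Hbg1 and Hbz fell below the filter, with strain means of 74.1 to 206 and of 16.2 to 18.8. Hbm, Hbq1 and Hbq1b had no probe set of 1 symbol in the annotation used. Mb, the oxygen store of muscle, averaged 17071 ± 4132 in P.NP, 16474 ± 4558 in P, 13075 ± 2677 in NP.P and 16049 ± 7782 in NP rats and was not called.

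The erythroid score was highest in the NP.P strain. It is the mean centred log2 signal of the 12 markers, and averaged -0.16 ± 0.07 in P.NP, -0.10 ± 0.07 in P, 0.26 ± 0.07 in NP.P and 0.0028 ± 0.09 in NP rats (SD, n = 5 each). The summed signal of the markers lay between 113541 and 124320 in P.NP, 122392 and 136614 in P, 149011 and 164443 in NP.P and 126273 and 139847 in NP rats. With this score as a covariate 1 member, 1371245_a_at, was called between the backgrounds, and Hba-a3 and Ahsp (-0.01, adjusted p = 0.988) were not, while the adjusted p of Hba-a3 lay between 0.0036 and 0.0399 over the other alternatives. The score itself was lower on the P background. With it the SE rose from 0.07 to 0.15 for Hba-a3 and from 0.05 to 0.10 for Ahsp. Far fewer of all probe sets were called between the backgrounds with this covariate. The lost calls therefore cannot tell whether red cell content accounts for the differences, which was not tested. Markers of other cells were called as well. Between the backgrounds 11.1% of all probe sets tested were called higher and 11.3% lower. A count of 1 in 5 or 6 genes, or of 2 in 8, is not read as a shift of that cell type. Between the backgrounds, where Hba-a3 and Ahsp were called, 3 of 4 adipocyte markers and 1 of 5 granulocyte markers were lower on the P background, and 2 of 3 B lymphoid, 2 of 4 endothelial and 2 of 8 osteoblast and bone matrix markers were higher. Of 6 megakaryocyte and platelet markers 2 were higher and 3 lower there, of 6 macrophage markers 1 was higher and 2 lower, and 0 of 6 cartilage and 0 of 5 skeletal muscle markers were called. In NP.P minus NP, where 2.3% of all probe sets were called, 3 of 6 megakaryocyte and platelet, 3 of 3 B lymphoid and 1 of 5 granulocyte markers were lower. There 2 of 4 adipocyte markers were higher. Osteoblast and bone matrix markers, which identify the tissue, were tested for 8 of 9 genes with mean signals of 2006 to 82615, and 0 of them were called in NP.P minus NP. None of these lists had a gene at the floor of 1 on every array, and their part in the globin differences was not tested.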

How the data were processed

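Femur RNA of 20 rats was hybridized to 1 Affymetrix array per animal. Scans were read by the authors in GCOS, and the deposited values are MAS5 signals, linear intensities whose 2% trimmed mean was 1000.3 to 1000.4 on each array. The methods used other values (robust multichip average) for their own tests, which were not used here.

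Of 31099 probe sets 57 were controls. A floor of 1 replaced 190 lower signals before the log2 step. Probe sets with a mean log2 signal at or above the 40th percentile (18625) were fitted with limma 3.58.1 in R 4.3.3 as 4 strain means over 20 arrays (16 residual and 2.78 prior degrees of freedom). P values were adjusted by Benjamini-Hochberg over all of them, at a false discovery rate of 10%. The F test, 3 contrasts of strain pairs, the background, segment and interaction contrasts were computed. Ratios of 2 probe sets were compared by permutation tests in scipy 1.17.1, and windows before the genes were aligned with biopython 1.88. The script was tested on simulated data.

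Gene names came from the platform annotation, where 20826 probe sets carried 1 symbol, 436 several and 9780 none. All members were named. Genes of other lists were read at the 1-symbol probe set with the highest mean and named if called between strain pairs, at most 4 per list and comparison, plus every embryonic globin. The genes most like the members were those with the highest within-strain r. Members and lists were chosen with earlier results of these data known. The labels do not say whether animals shared litters, so p values measure the spread between these animals. Replicate numbers of the labels did not pair the animals. The number of arrays limits the precision. Alternatives were quantile normalization, a stricter (60th percentile) or no filter, centring on 200 bright probe sets, an offset of 21.7 before log2, a mean-variance trend, a false discovery rate of 5%, the methods' unequal-variance test, fits of 2 strains, a replicate block, the erythroid score as covariate and each array left out.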

Additional observations from a re-analysis of the deposited data

Results flagged for a closer look

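Each of the 8 probe sets was examined in each strain for a single animal far from the other 4, and 3 of these 32 groups held one past Dixon's 95% critical value for 5 samples; chance alone flags about 1 group in 20. At Hbb, P replicate 1 had a signal of 55029, the lowest of the P rats, where the other 4 lay between 69526 and 74061 (gap over range 0.787). At the same probe set NP replicate 1 had 55515, where the other 4 NP rats lay between 74069 and 81241 (0.757). At 1388608_x_at, shared by Hba-a2 and Hba-a1, NP replicate 1 had 59788, where the other 4 lay between 79586 and 84236 (0.834). Both arrays were also low over the 200 bright probe sets outside the red cell lists, by -0.12 and -0.21 on the log2 scale, while their erythroid scores of -0.20 and -0.04 were the lowest of the P rats and the second lowest of the NP rats. No member had a called interaction of segment and background.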

How the results depend on the processing

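The call of 1371245_a_at between backgrounds (0.59 to 0.77) and in P minus NP (0.65 to 0.78) held under every alternative run, as did a count of 0 in P.NP minus P, for the segment and for the interaction. Of 846 alternative values of single differences 799 kept direction and side of the threshold and 37 changed sign, none of them a called one. Alternatives that changed only the filter, the threshold, the test, the spread estimate or the block left the differences as they were. They could move a call but not a sign, so the 799 is partly fixed in advance. The count in NP.P minus NP was 1 with a filter at the 60th percentile, a mean-variance trend and the replicate block (Hba-a3 in each), and lay between 0 and 1 over the left-out arrays (1 without NP replicate 2). Against 3 members as reported, the F test called 2 without a filter, after quantile normalization and after bright centring, the background 2 after quantile normalization and after bright centring, and both called 1 with the erythroid covariate. Without single arrays the background count lay between 3 and 5 (5 without NP replicate 1) and that of the F test between 2 and 3. With the erythroid covariate far fewer of all probe sets were called by the F test and between backgrounds. The cause of these changes was not tested.

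Uncalled differences changed sign as follows. In P.NP minus P, Hbb was 0.047 after quantile normalization, 0.0081 after bright centring, 0.026 with the erythroid covariate and -0.094 to 0.013 over left-out arrays, 1371102_x_at 0.023 after quantile normalization and 0.0014 with the covariate, and Hba-a3 -0.053 to 0.074 over left-out arrays. In NP.P minus NP, Hbb was -9.6e-05 after quantile normalization and -0.049 after bright centring, and 1371102_x_at -0.00018 after bright centring. With the covariate Hbb was -0.17, 1370239_at -0.077, 1371102_x_at -0.12, 1371245_a_at -0.022, 1388608_x_at -0.12 and Ahsp -0.030. Over left-out arrays Hbb lay between -0.065 and 0.073, 1370239_at between -0.0085 and 0.14, 1370240_x_at between -0.17 and 0.022, 1371102_x_at between -0.0058 and 0.13 and 1388608_x_at between -0.0014 and 0.12. Between backgrounds, 1370240_x_at was 0.0045 after quantile normalization and 0.0013 after bright centring, and 1371102_x_at 0.012 after bright centring. With the covariate the background differences were 0.11 (Hbb), 0.064 (1370239_at), 0.22 (1370240_x_at), 0.13 (1371102_x_at) and 0.078 (1388608_x_at).

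Replicate numbers were shared by the strains, but the correlations of same-numbered arrays lay between -0.089 and 0.33, so they were not taken as pairs. The same-numbered array was the best match for some arrays, for replicate 5 in every strain pair compared, and not for others. Whether same-numbered arrays shared a batch was not tested. The replicate block left the other counts at their values, with 3 members called by the F test and between backgrounds, 1 in P minus NP and 0 in P.NP minus P, for the segment and for the interaction.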
